A study of Homo sapiens with 22 samples.

Results

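Box C/D small nucleolar RNAs were followed in LS180 and HCT116 colorectal cancer cells after transcription was blocked. Members were chosen by measured counts: a gene was included if its symbol was SNORD, a number and at most 1 letter, and if its mean expected count over the 3 libraries at 0 h was at least 10 in either line. Of the 57820 genes in each table, 287 carried such a symbol and 22 of them reached the minimum. The 287 rows held 163 distinct symbols, and 193 of them had no count in any actinomycin D library. Of the 22 members, 17 passed in both lines, SNORD35A and SNORD16 passed in LS180 alone, and SNORD14B, SNORD8 and SNORD32A passed in HCT116 alone.

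LS180 and HCT116 were established colorectal cancer lines, and each was sampled at 0, 2 and 4 h of actinomycin D at 5 ug/ml, with 3 libraries of total RNA per line and time. Actinomycin D binds DNA and blocks transcription. A second set held 4 polyA libraries of LS180, 2 with a control siRNA (siCTRL) and 2 with an siRNA against STAU1 (siSTAU1), an RNA-binding protein, each after 72 h and another 72 h of transfection. The labels named no genotype change, gave no vehicle for the 0 h libraries, and did not say whether libraries of a group came from separate cultures, so the p-values measure the spread between these libraries, which may be technical. Each line stands for itself as a model of tumour epithelium: at 1 CPM (read counts scaled to library size) or more, 6 of 7 epithelial markers were found in LS180 and 6 of 7 in HCT116. All 4 goblet cell markers were found in LS180, with a summed level of 952 to 1577 CPM, and 0 of 4 in HCT116, where the sum was at most 0.195 CPM. Markers of fibroblasts, immune cells and endothelium were under 1 CPM except COL1A1 in HCT116 and LYZ in LS180.

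Box C/D snoRNAs are short nucleolar RNAs named for a pair of conserved motifs, box C near the 5′ end and box D near the 3′ end. The motifs are brought together by a closing stem and bound by NHP2L1 (also called SNU13), NOP56, NOP58 and the methyltransferase fibrillarin (FBL). Most of them base-pair with ribosomal RNA or U6 snRNA and mark the nucleotide that fibrillarin methylates on its ribose. A few, the U3, U8 and U14 RNAs, act in the cutting of the ribosomal RNA precursor, and U13 was grouped with them here. In human cells most are cut out of introns of genes for ribosomal and other proteins, while U3, U8 and U13 are transcribed from their own promoters. Being held in stable protein complexes, mature snoRNAs are known as long-lived RNAs.

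The sequences below are those of the members whose values the results turn on: the U3 copies, whose rows share reads, and U8, U14 and 3 guide RNAs that moved after the block. They were taken from the transcripts of GENCODE release 29 (GRCh38), which held 21 members on chromosomes reported here, and are written 5′ to 3′ in DNA letters. Capitals mark the letters TGATGA (box C; its last occurrence in U3) and, within the last 20 bases, CTGA (box D). Both were searched on the transcript strand alone, and the marked stretches overlapped in 0 members.
SNORD3A: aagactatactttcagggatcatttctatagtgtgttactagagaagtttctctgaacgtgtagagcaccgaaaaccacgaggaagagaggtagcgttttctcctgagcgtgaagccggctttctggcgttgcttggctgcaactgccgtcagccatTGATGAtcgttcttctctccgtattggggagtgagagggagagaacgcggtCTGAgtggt
SNORD3C: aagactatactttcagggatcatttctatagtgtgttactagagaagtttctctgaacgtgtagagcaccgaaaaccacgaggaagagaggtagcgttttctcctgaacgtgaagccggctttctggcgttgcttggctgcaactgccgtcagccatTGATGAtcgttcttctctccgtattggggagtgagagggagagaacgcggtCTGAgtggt
SNORD3D: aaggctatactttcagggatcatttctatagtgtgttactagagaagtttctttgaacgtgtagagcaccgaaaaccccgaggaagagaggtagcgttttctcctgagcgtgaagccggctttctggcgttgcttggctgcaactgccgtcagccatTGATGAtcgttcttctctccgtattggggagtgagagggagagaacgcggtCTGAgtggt
SNORD118: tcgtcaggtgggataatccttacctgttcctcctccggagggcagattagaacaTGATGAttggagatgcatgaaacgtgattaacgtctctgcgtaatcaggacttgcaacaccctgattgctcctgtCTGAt
SNORD14C: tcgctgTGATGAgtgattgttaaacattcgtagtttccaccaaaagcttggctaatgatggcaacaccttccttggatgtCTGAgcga
SNORD14B: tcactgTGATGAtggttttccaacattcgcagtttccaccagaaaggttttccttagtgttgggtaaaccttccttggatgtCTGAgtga
SNORD33: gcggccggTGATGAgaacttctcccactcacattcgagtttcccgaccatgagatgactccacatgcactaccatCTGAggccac
SNORD8: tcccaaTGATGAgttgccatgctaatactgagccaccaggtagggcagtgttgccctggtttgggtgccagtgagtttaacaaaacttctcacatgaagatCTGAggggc
SNORD94: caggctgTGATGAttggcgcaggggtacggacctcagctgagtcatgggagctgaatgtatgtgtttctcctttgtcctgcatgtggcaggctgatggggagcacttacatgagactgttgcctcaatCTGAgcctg
The U3 sequences lie at chr17:19188016-19188232 on the plus strand (SNORD3A), chr17:19190029-19190245 on the minus strand (SNORD3C) and chr17:19112420-19112636 on the minus strand (SNORD3D). For SNORD3D the stretch shown is the first 217 bases of a model of 637 bases, which this release annotates as a long noncoding RNA. Counted from 1 at the 5′ end, SNORD3A and SNORD3C differed by G108A, and SNORD3A and SNORD3D by A4G, C53T and A78C. No gene on the same strand held any of the U3 rows.

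SNORD118 (U8) lies at chr17:8173454-8173587, minus strand, and overlaps an exon of a protein-coding transcript of TMEM107. SNORD14C and SNORD14B, both U14, lie at chr11:123059335-123059422 and chr11:17075779-17075868 on the minus strand, in HSPA8 and RPS13, and were identical at 72 of 91 aligned positions (79.1%). SNORD33 lies in RPL13A at chr19:49490615-49490699, plus strand. SNORD8 lies in CHD8 at chr14:21397292-21397401, minus strand, and SNORD94 in an intron of PTCD3 at chr2:86135870-86136006, plus strand. Of the 21 member sequences, 16 held TGATGA and 20 held CTGA in their last 20 bases. SNORD10, SNORD97, SNORD35A, SNORD88C and SNORD16 held no TGATGA. Among all 163 annotated sequences of this symbol pattern 69.9% held TGATGA, against 3.45% of 145 box H/ACA sequences, the other snoRNA class. TGATGA in the first 40 bases together with CTGA in the last 20 was found in 12 members, in 58.3% of the 163 and in 0 of the 145.

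Which members were seen went with the length of the gene in the table. The members were 84 to 637 bases long with a median of 112, against a median of 73 over the 287 rows. Of 27 rows of 100 bases or more, 14 were members (51.9%), and of 260 shorter rows 8 were (3.08%). RSEM, the authors' counting tool, gave an effective length of 0 to all 260 shorter rows in every library, and 75 of them still held counts. SNORD13 and SNORD46, each of 104 bases, were given 0 to 1.41 bases. Of the members, 10 had 0 in at least 1 library, and 8, among them SNORD14C and SNORD33, in every library. The libraries were thus total RNA libraries in which most short box C/D rows held few reads or none. The levels of the short members, SNORD13 and SNORD46 included, are uncertain. Just inside the minimum lay SNORD32A, with a higher 0 h mean of 10.8 counts, and SNORD16 with 11.4. Just outside lay SNORD9 with 9.67 and SNORD55 with 8.86. Among U14 rows, SNORD14A reached 8.33 and SNORD14D 8.65 counts in HCT116, and SNORD14E 0.667 in LS180, and all were left out. SNORD22 (U22) had 0 in both lines.

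**Figure D1:**
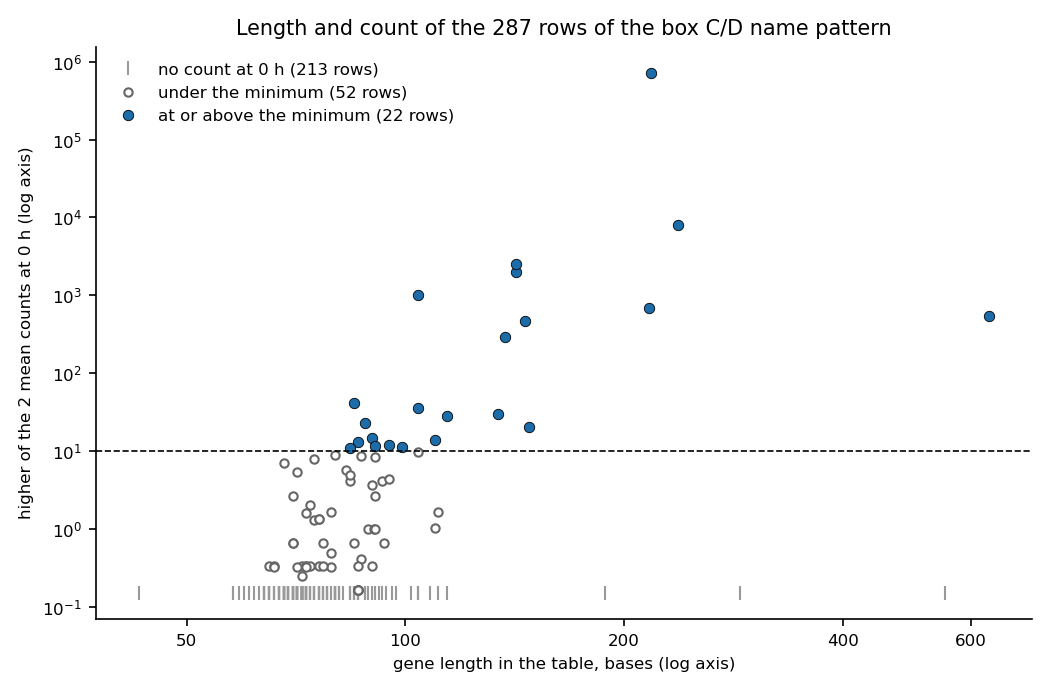
Length of each of the 287 rows in the table (x axis, bases, log scale) against the higher of its mean counts at 0 h in LS180 and HCT116 (y axis, log scale), with rows without a count drawn at the foot. The dashed line is the minimum of 10 counts, and the members above it include 14 of the 27 rows of 100 bases or more.

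SNORD3A, a copy of U3, made up nearly all of the signal. U3 pairs with the ribosomal RNA precursor and is needed for the early cuts that release 18S rRNA. Together the members took 0.719 to 1.93% of all counts in a library, and SNORD3A held 96.3 to 98.5% of the members' counts. Depth was 47.8 to 61.4 M counts per library. Per kilobase of the length in the table, the highest members at 0 h over both lines were SNORD3A with 53118 CPM per kilobase, SNORD17 with 576, SNORD10 with 272, SNORD97 with 211 and SNORD13 with 145. SNORD15B followed with 52.0, SNORD3C with 39.1 and SNORD94 with 37.1 CPM per kilobase. The lowest was SNORD16 with 1.64, so the members spanned more than 4 orders of magnitude on this scale. The order holds for the full length only. The effective length was 62.6 to 72.3 bases for SNORD17, 7.7 to 10.9 for SNORD10 and SNORD97, and 0 to 1.41 for SNORD13.

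At 0 h the ratio of the HCT116 mean to the LS180 mean ran from 0.476 for SNORD118 to 2.84 for SNORD3C. These are the libraries that chose the members, so the line difference at 0 h is a description and was not tested. SNORD118 was measured at 0.643, 0.699 and 0.323 CPM in LS180 and at 0.135, 0.303 and 0.355 CPM in HCT116. The lowest LS180 library lay below the highest HCT116 library, so the lines overlapped. SNORD3C was measured at 3.59, 5.34 and 4.32 CPM in LS180 and at 4.83, 9.86 and 23.0 CPM in HCT116, which also overlapped. SNORD3A ranged over 8660, 10992 and 11398 CPM in LS180 and 8105, 12370 and 17886 CPM in HCT116.

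In LS180, 4 h of actinomycin D were followed by higher levels of 10 of the 22 members and a lower level of SNORD3D. In HCT116, SNORD13 rose and SNORD3D, SNORD118 and SNORD94 fell. SNORD14B was also called lower there. It passed the rule only through HCT116 at 0 h, the libraries its fall is measured from, so that call is a description. The question these comparisons answer is how the level of each RNA moved relative to all RNA that remained, since CPM has no absolute scale when transcription stops. In bulk RNA, fewer cells and less RNA per cell cannot be told apart. All 22 members passed the filter on low counts and were tested with edgeR's quasi-likelihood test, with Benjamini-Hochberg adjustment over 17256 genes. The 2 h and 4 h comparisons share their 0 h libraries, and the rule chose the members on those libraries; for members close to the minimum of 10 counts, selection and comparison rest on the same reads.

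In LS180 at 4 h against 0 h, 10 of 22 members were called higher, where 26.6% of all genes tested were, and 1 was called lower, where 31.1% were. The median log2 change of the members was 0.72, beside 0.00 over all genes. At 2 h against 0 h, 5 members were called higher (all genes 13.5%) and 1 lower (23.9%), with a median of 0.35. In HCT116 at 4 h against 0 h, 1 member was called higher (26.2% of all genes) and 4 lower (23.7%), with a median of -0.51 beside 0.02 over all genes. At 2 h against 0 h in HCT116, 1 was called higher (13.8%) and 1 lower (17.1%), with a median of 0.11. The shares of members called higher in HCT116 were below the share of all genes, and the 4 called lower made up a share near it. These 4 include SNORD14B, which the 0 h libraries of HCT116 alone brought into the set. In HCT116 at 4 h, 7 members were called lower without library 1 at 0 h, 1 without library 2 at 0 h or at 4 h, and 2 without library 3 at 0 h. In LS180 at 2 h, 3 were called higher without library 1 or 3 at 0 h or library 1 at 2 h.

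The scaling of the libraries set part of these counts. Scaling to ribosomal protein mRNAs moved the median log2 change of all genes at 4 h against 0 h to -0.54 in LS180 and to -0.34 in HCT116, and total library size moved it to -0.20 in LS180. With ribosomal protein scaling 5 members were higher and 1 lower in LS180, and 1 was higher and 12 lower in HCT116. With total library size 6 members were higher and 1 lower in LS180. Scaling to the box H/ACA snoRNAs left 4 higher and 1 lower in LS180, and 1 higher and 5 lower in HCT116. SNORD13, SNORD14C, SNORD33 and SNORD46 were called higher and SNORD3D lower at 4 h in LS180 under each of these scalings, and SNORD13 higher and SNORD3D lower at 4 h in HCT116.

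In LS180 the size of the change also differed between libraries. The library numbered 1 at 4 h (numbers as the labels give them) was the lowest of its group for 21 of 22 members. SNORD17 was at 127, 287 and 283 CPM in the 3 libraries of that group. Without library 1, 16 members were called higher at 4 h against 0 h, and with library 1 as the 4 h group alone, 2 were. SNORD14C and SNORD13 were those 2. The box H/ACA snoRNAs moved with the members across libraries: their sum was 908, 1741 and 1866 CPM in the same 3 libraries, against 897, 1242 and 1094 CPM at 0 h. In HCT116, library 1 was the lowest of its group for 19 members at 0 h and for 16 at 2 h. At 4 h there, library 1 was the lowest for 6 members and library 2 for 14. The part of this shared movement in the members' changes was not tested.

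**Figure D2:**
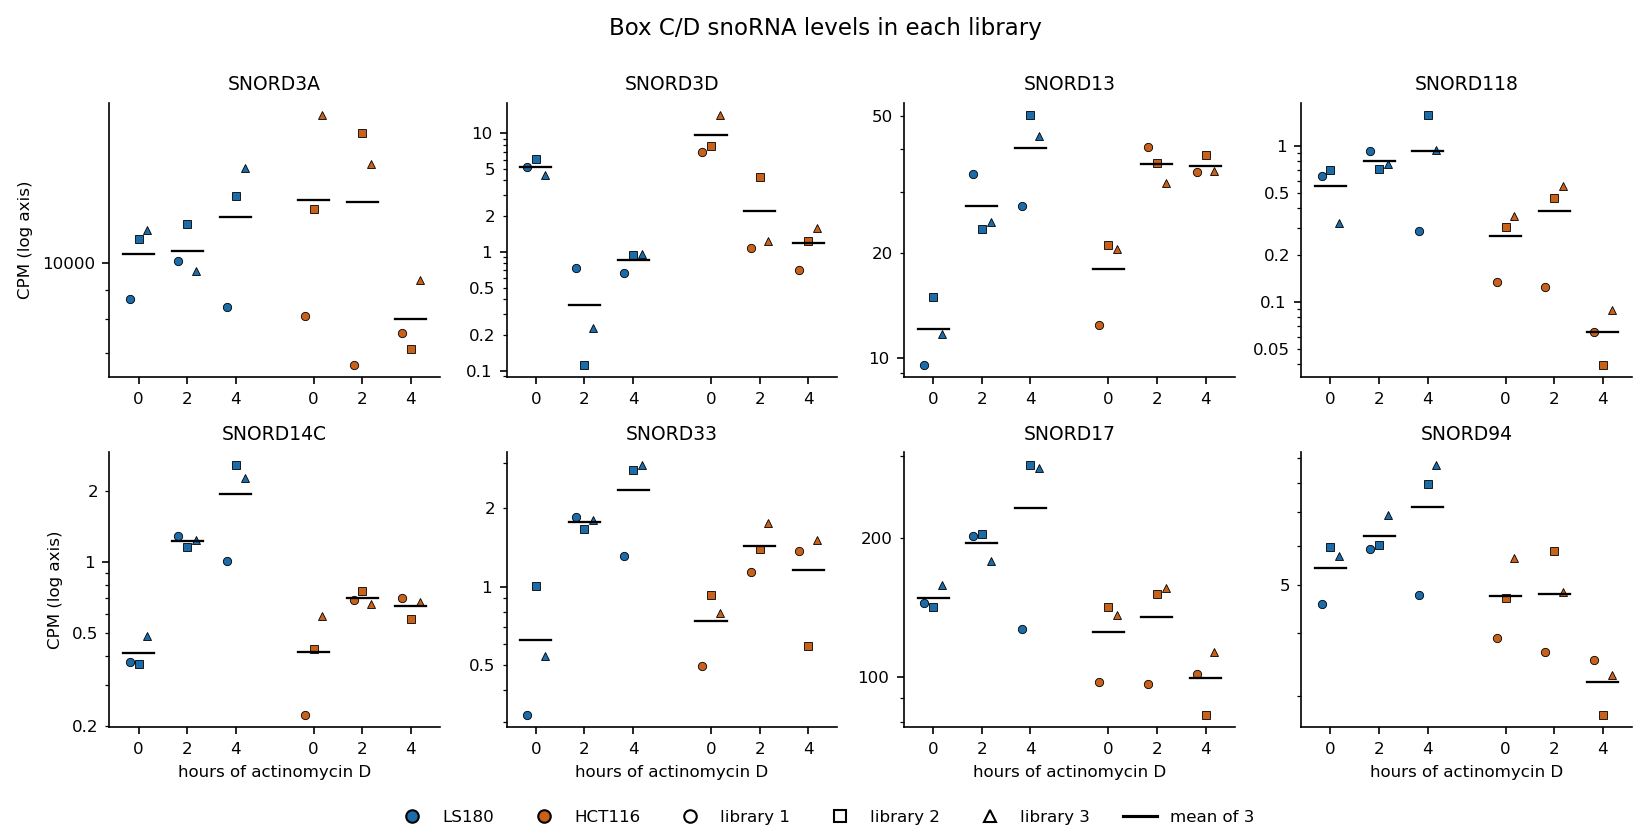
Level of 8 members in CPM (y axes, log scale) in each of the 18 libraries, by line and hours of actinomycin D (x axes), with symbols for the library number and a bar for the mean of 3. SNORD13 lies above its 0 h libraries at 2 h and 4 h in both lines, SNORD3D lies below them, and LS180 library 1 at 4 h (blue circle) lies under the other libraries of its group.

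SNORD13 (U13), which is known to pair with the 3′ end of 18S rRNA and was listed here with the cleavage RNAs, rose in both lines. It was measured in LS180 at 9.52, 15.01 and 11.7 CPM at 0 h, at 33.8, 23.5 and 24.6 CPM at 2 h and at 27.3, 50.1 and 43.6 CPM at 4 h. In HCT116 it was at 12.4, 21.2 and 20.6 CPM at 0 h, 40.4, 36.5 and 31.9 CPM at 2 h and 34.3, 38.6 and 34.7 CPM at 4 h. All treated libraries were above all 0 h libraries of their line. Against 0 h its log2 change was 1.18 (SE 0.223, edgeR adjusted p = 0.000359) at 2 h and 1.74 (SE 0.224, edgeR adjusted p = 2.11e-06) at 4 h in LS180. In HCT116 it was 1.01 (SE 0.217, edgeR adjusted p = 0.00172) at 2 h and 1.00 (SE 0.217, edgeR adjusted p = 0.000821) at 4 h. From 2 h to 4 h the change was 0.56 in LS180 and -0.02 in HCT116, and neither passed the test. SNORD13 kept its call in every alternative run, with a change at 4 h of 1.16 to 2.09 in LS180 and 0.59 to 1.13 in HCT116. Its row had an effective length of only 0 to 1.41 bases, so its level is uncertain.

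SNORD3D, counted on a long model of a U3 locus, was the member that fell in both lines. Its counts in LS180 were 288, 313 and 247 at 0 h, 43.4, 5.85 and 13.7 at 2 h, and 34.8, 47.5 and 44.2 at 4 h. In HCT116 they were 468, 438 and 717 at 0 h, 60.9, 240.4 and 68.7 at 2 h, and 44.5, 62.8 and 90.2 at 4 h. Every treated library lay below every 0 h library of its line. The log2 change at 2 h was -3.84 (SE 0.549, edgeR adjusted p = 1.62e-05) in LS180 and -2.12 (SE 0.424, edgeR adjusted p = 0.000958) in HCT116. At 4 h it was -2.61 (SE 0.493, edgeR adjusted p = 0.000161) in LS180 and -3.03 (SE 0.457, edgeR adjusted p = 2.22e-05) in HCT116. The calls held in every alternative run.

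The length that the counting tool assigned to this row says which model held its reads. It was 637 bases, that of the long model, in all 0 h libraries and in 14 of the 18 libraries, and was lowest, at 286 bases, in 1 LS180 library at 2 h. SNORD3A was assigned 217 to 218 bases in all libraries, the length of mature U3. A row of another U3 copy that the symbol rule leaves out, SNORD3B-1, was looked at after the values were seen, and was assigned 583 bases in all HCT116 libraries. In HCT116 it held 154, 184 and 141 counts at 0 h, 30.8, 32.5 and 20.3 at 2 h and 46.7, 46.6 and 44.3 at 4 h. In LS180 its counts were 1108, 795 and 955 at 0 h, 166, 684 and 613 at 2 h, and 386, 269 and 557 at 4 h. As with SNORD3D, all treated libraries lay below the 0 h libraries of the line.

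Mature U3 did not pass the test in LS180, and in HCT116 its fall at 4 h lay close to the threshold, on either side of it depending on the setting. SNORD3A was at 8660, 10992 and 11398 CPM at 0 h, 10088, 11635 and 9664 CPM at 2 h and 8409, 13006 and 14516 CPM at 4 h in LS180. Its log2 change at 4 h against 0 h was 0.21 (SE 0.284, edgeR adjusted p = 0.553). HCT116 libraries of SNORD3A were at 8105, 12370 and 17886 CPM at 0 h, 6687, 16694 and 14790 CPM at 2 h and 7592, 7114 and 9360 CPM at 4 h. The 4 h and 0 h libraries overlapped, and the log2 change was -0.67 (SE 0.285, edgeR adjusted p = 0.0583). The HCT116 change was below 0 in all alternatives run (-0.35 to -1.09). It was called lower in 9 of 16, with adjusted p = 0.0210 with the replicate block and 0.0916 with DESeq2. These 9 include the edgeR run with no filter on low counts. Its adjusted p of 8.36e-22, at a change of -0.71, lay far below those of all other runs. Without HCT116 library 3 at 0 h it was -0.35 (adjusted p = 0.356), and without library 1 at 0 h -0.91 (adjusted p = 0.0116). SNORD3C was at a log2 change of 0.26 in LS180 and -1.05 (SE 0.468, edgeR adjusted p = 0.0707) in HCT116 at 4 h. The HCT116 fall was called in 6 of 16 alternatives, and the change was -0.28 without library 3 at 0 h. Those 6 include the edgeR run with no filter, with an adjusted p of 1.45e-18 at a change of -1.09. Since near-identical copies share reads, the 5 U3 rows were also summed: the sum changed by 0.20 in LS180 and -0.68 (SE 0.285, edgeR adjusted p = 0.0576) in HCT116. SNORD3A held 96.2 to 99.9% of the reads of those 5 rows.

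SNORD118 (U8), which is needed for the processing of 5.8S and 28S rRNA, fell in HCT116 at 4 h. It held 9.29, 16.9 and 17.7 counts in HCT116 at 0 h, 6.62, 25.8 and 30.8 at 2 h and 4.46, 2.46 and 4.54 at 4 h. The 4 h libraries were below all others of the line. The log2 change was -1.95 (SE 0.793, edgeR adjusted p = 0.0488) against 0 h and -2.52 (SE 0.746, edgeR adjusted p = 0.0271) against 2 h. Leaving out any of the 3 libraries at 4 h ended both calls, which rest on very few reads, and over the alternatives the adjusted p ran to 0.142 and 0.127. In LS180, SNORD118 held 35.8, 36.4 and 17.7 counts at 0 h and 14.9, 78.3 and 43.1 at 4 h, which overlapped, with a log2 change of 0.74 (edgeR adjusted p = 0.201).

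The U14 copies pair with 18S rRNA both in cleavage and as methylation guides. Of these copies, SNORD14C was called higher in LS180, and SNORD14B lower in HCT116. SNORD14C was at 0.375, 0.369 and 0.485 CPM in LS180 at 0 h, 1.29, 1.16 and 1.24 CPM at 2 h and 1.01, 2.58 and 2.26 CPM at 4 h. All treated libraries lay above the 0 h libraries. Its log2 change was 1.58 (SE 0.32, edgeR adjusted p = 0.0007) at 2 h and 2.24 (SE 0.313, edgeR adjusted p = 5.84e-06) at 4 h, and it kept both calls in every alternative. In HCT116 it was at 0.224, 0.428 and 0.591 CPM at 0 h and 0.703, 0.573 and 0.675 CPM at 4 h, which overlapped, a log2 change of 0.69 that did not pass (SE 0.341, edgeR adjusted p = 0.105). SNORD14B held 7.73, 27.7 and 8.79 counts in HCT116 at 0 h and 3.90, 0.96 and 3.94 at 4 h, with no overlap. That fall of 2.26 on the log2 scale passed (SE 0.717, edgeR adjusted p = 0.0132), and was lost without HCT116 library 2 at 0 h or at 4 h. In LS180 its change at 4 h was -0.28 (edgeR adjusted p = 0.779). SNORD14B passed the rule only through HCT116 at 0 h, the libraries its fall is measured from, so that fall is a description, and the difference between the U14 copies was not tested.

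The guides of 18S rRNA methylation among the members were SNORD33, SNORD32A and SNORD16. SNORD33 was at 0.322, 1.01 and 0.538 CPM in LS180 at 0 h, 1.85, 1.66 and 1.81 CPM at 2 h and 1.31, 2.80 and 2.94 CPM at 4 h. All treated libraries lay above the 0 h libraries. The log2 change was 1.52 (SE 0.385, edgeR adjusted p = 0.00444) at 2 h and 1.92 (SE 0.382, edgeR adjusted p = 0.000269) at 4 h. With LS180 library 1 alone at 4 h the change was 1.22 and the adjusted p 0.0517. In HCT116 SNORD33 was at 0.494, 0.927 and 0.789 CPM at 0 h and 1.37, 0.593 and 1.51 CPM at 4 h, which overlapped (log2 change 0.68, edgeR adjusted p = 0.159). SNORD32A (0.97 in LS180, -0.21 in HCT116) and SNORD16 (0.70 and -0.50), both near the minimum, did not pass at 4 h.

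Of the 7 guides of 28S rRNA methylation, 4 rose in LS180 at 4 h, where 26.6% of all genes did, with a median of 0.81. In HCT116 0 passed the test at 4 h, 0 had an unadjusted p under 0.05, and 6 of 7 were below 0 with a median of -0.61. SNORD46 was at 0.268, 0.466 and 0.269 CPM in LS180 at 0 h and 0.572, 1.19 and 1.04 CPM at 4 h, with no overlap (log2 change 1.48, SE 0.315, edgeR adjusted p = 0.000501). It was at 0.434, 0.731 and 0.749 CPM in HCT116 at 0 h and 0.383, 0.376 and 0.480 CPM at 4 h, which overlapped (log2 change -0.61, edgeR adjusted p = 0.117). SNORD17, the longest guide and next to U3 in level, was at 144, 142 and 158 CPM in LS180 at 0 h, 201, 204 and 179 CPM at 2 h and 127, 287 and 283 CPM at 4 h. The 4 h libraries fell on both sides of the 0 h libraries. Its log2 change of 0.65 at 4 h (SE 0.232, edgeR adjusted p = 0.0221) turned to -0.083 with library 1 alone. It was no longer called with total library size, ribosomal protein or box H/ACA scaling, or without LS180 library 1 or 2 at 0 h or library 2 or 3 at 4 h. In HCT116 the change of SNORD17 was -0.33 (edgeR adjusted p = 0.262). SNORD21 (1.11, edgeR adjusted p = 0.0192) and SNORD15B (0.81, edgeR adjusted p = 0.0327) also rose in LS180, but SNORD21 lost its call in 7 of 15 alternatives and SNORD15B in 9 of 16. For both these were total library size, ribosomal protein and box H/ACA scaling, library 1 alone, only the libraries compared, and leaving out library 1 at 0 h or library 2 at 4 h, and for SNORD15B also library 2 at 0 h or library 3 at 4 h. SNORD15B turned to -0.22 with library 1 alone. SNORD15A, SNORD35A and SNORD88C did not pass at 4 h in either line.

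Among the guides of 5.8S rRNA or U6 snRNA, SNORD8 was the member called between 2 h and 4 h in LS180. It held 9, 8 and 8 counts at 0 h, 15, 7 and 11 at 2 h and 7, 27 and 32 at 4 h. Library 1 at 4 h lay below the 0 h libraries and the others far above them. Its log2 change was 1.55 (SE 0.451, edgeR adjusted p = 0.00651) against 0 h and 1.25 (SE 0.431, edgeR adjusted p = 0.0351) against 2 h. With library 1 alone the changes were -0.065 and -0.49. Without library 3 at 4 h neither was called. SNORD10 was at 41.2, 52.4 and 46.2 CPM in LS180 at 0 h and 46.1, 70.9 and 73.7 CPM at 4 h, which overlapped. That change of 0.45 passed (SE 0.131, edgeR adjusted p = 0.00661) and turned to -0.13 with ribosomal protein scaling. It was also lost with total library size, with box H/ACA scaling and with library 1 alone. SNORD94 was at 3.91, 4.71 and 5.66 CPM in HCT116 at 0 h and 3.53, 2.75 and 3.30 CPM at 4 h, with no overlap. It fell by 0.56 on the log2 scale (SE 0.208, edgeR adjusted p = 0.0311), a call lost without HCT116 library 2 or 3 at 0 h or library 2 at 4 h and with box H/ACA scaling. In LS180 its change was 0.40 (edgeR adjusted p = 0.0947).

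SNORD89 and SNORD97 had no target in the lists used here, which cover ribosomal RNA and U6 snRNA alone. SNORD89 was at 0.554, 0.408 and 0.574 CPM in LS180 at 0 h and 0.743, 1.65 and 1.44 CPM at 4 h, with no overlap, a rise of 1.31 on the log2 scale (SE 0.33, edgeR adjusted p = 0.00225). Library 1 alone or box H/ACA scaling ended this call. SNORD97, at 22.8, 29.3 and 25.1 CPM in LS180 at 0 h and 19.8, 42.3 and 42.8 CPM at 4 h, did not pass (0.44, edgeR adjusted p = 0.0785). In HCT116 neither passed at 4 h.

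The comparison of 4 h with 2 h uses no library that chose the members. In LS180, SNORD8 alone was called higher, 1 of 22 where 12.2% of all genes were, and 0 were called lower, where 18.5% of all genes were. The median was 0.32 beside 0.02 over all genes. In HCT116, 0 were called higher (4.85% of all genes) and SNORD118 alone lower, 1 of 22 (11% of all genes), with a median of -0.47 beside 0.02. At an unadjusted p under 0.05 there were 5 members in LS180 and 4 in HCT116, and DESeq2 called 0 members higher in either line and 0 lower in LS180. The members' signs differed between the lines: 20 of 22 were above 0 in LS180 and 21 of 22 below 0 in HCT116. Without LS180 library 1 at 4 h, 9 members were called higher in LS180, without library 1 at 2 h 3 were, and without any of the other 4 libraries 0 were. Without HCT116 library 1 at 2 h, 4 were called lower in HCT116, and 0 without any of the other 5 libraries.

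**Figure D3:**
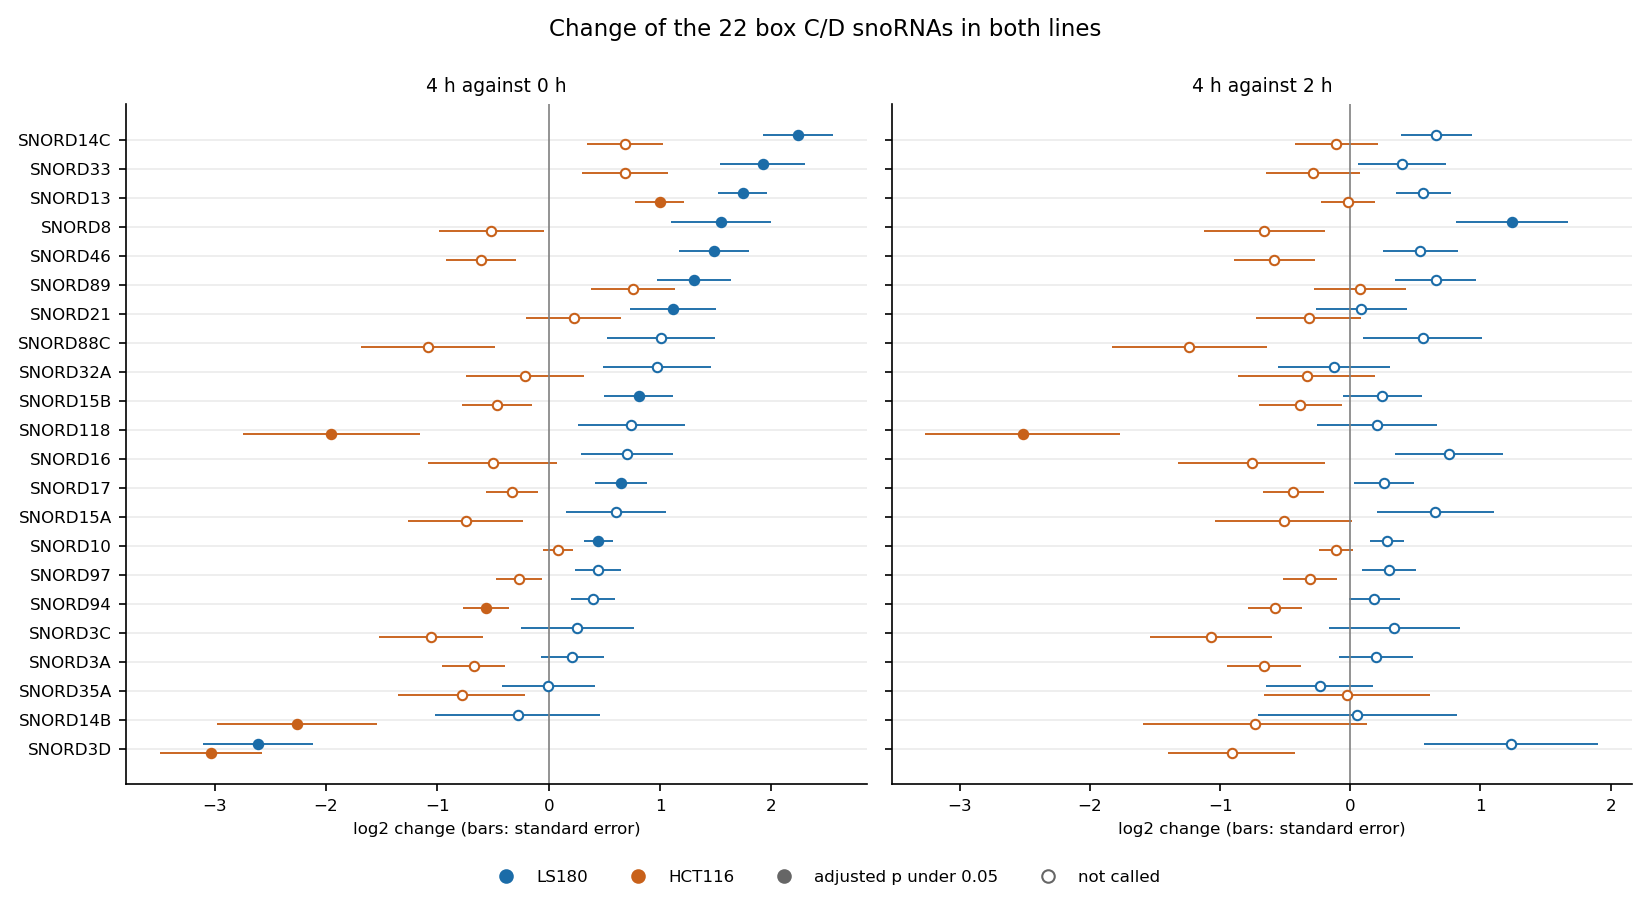
Log2 change of each of the 22 members at 4 h against 0 h and against 2 h (x axes) in LS180 (blue) and HCT116 (orange), with standard errors as bars and filled points where the edgeR adjusted p was under 0.05. At 4 h against 0 h all members lie further to the left in HCT116, a description, since the 0 h libraries chose the members. Of these differences 4 passed their own test, with SNORD8, which passed the rule only through HCT116, among them.

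The difference between the lines was itself tested as the change in HCT116 minus the change in LS180. For 4 h against 0 h, 4 of 22 members were called lower in HCT116, where 1.33% of all genes were, and 0 were called higher, where 12.3% were. SNORD46 differed by -2.09 (SE 0.444, edgeR adjusted p = 0.00286), SNORD14C by -1.55 (SE 0.47, edgeR adjusted p = 0.033) and SNORD94 by -0.96 (SE 0.287, edgeR adjusted p = 0.0304). The fourth, SNORD8, differed by -2.06 (SE 0.656). It passed the rule only through HCT116 at 0 h, with a mean of 13.7 counts against 8.33 in LS180, so its difference rests on the reads that chose it and is a description. The difference was below 0 for all 22 members, with a median of -1.19 beside 0.06 over all genes. This is a description, since the 0 h libraries chose the members. SNORD14B, SNORD8 and SNORD32A passed only through HCT116 at 0 h, which favours a difference below 0. SNORD35A and SNORD16 passed only through LS180, which favours the opposite. Among the 9 members with a mean 0 h count of at least 100, all 9 were below 0, with a median of -0.88. The 4 became 0 with library 1 as the only LS180 library at 4 h and with box H/ACA scaling, 1 with ribosomal protein scaling, and 14 without library 1. They became 8 without HCT116 library 1 at 0 h, 7 without HCT116 library 3 at 4 h, 1 without HCT116 library 2 or 3 at 0 h, LS180 library 1 at 0 h or LS180 library 2 or 3 at 4 h, and 2 without LS180 library 2 at 0 h. For 4 h against 2 h, edgeR called 0 members lower (0.0406% of all genes) and 0 higher (0.255%). There DESeq2 also called 0, and 9 members had an unadjusted p under 0.05. Without LS180 library 1 at 4 h, 9 were called lower.

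The other snoRNA class had median changes of the same sign as the members, 0.64 in LS180 and -0.39 in HCT116 at 4 h against 0 h. Box H/ACA snoRNAs guide pseudouridylation and are bound by other proteins. Of 65 tested, 27 were called higher and 0 lower in LS180 at 4 h against 0 h, where 26.6% and 31.1% of all genes were. In HCT116, 2 were higher and 13 lower, both shares below those of all genes (26.2% and 23.7%). The line difference was called lower in 20 of 65 (1.33% of all genes), and below 0 in all 65. The 19 members other than U3 summed to 232, 256 and 259 CPM in LS180 at 0 h and 236, 489 and 479 CPM at 4 h. In HCT116 their sum was 181, 254 and 240 CPM at 0 h and 210, 190 and 227 CPM at 4 h, which overlapped. Over the 18 libraries this sum and the box H/ACA sum had a Pearson r of 0.909 on the log2 scale, a description in which the points share their libraries and scaling. Their ratio was 0.206 to 0.259 in LS180 at 0 h, 0.267 to 0.295 at 2 h and 0.257 to 0.281 at 4 h. In HCT116 it was 0.288 to 0.328, 0.325 to 0.357 and 0.302 to 0.328.

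**Figure D4:**
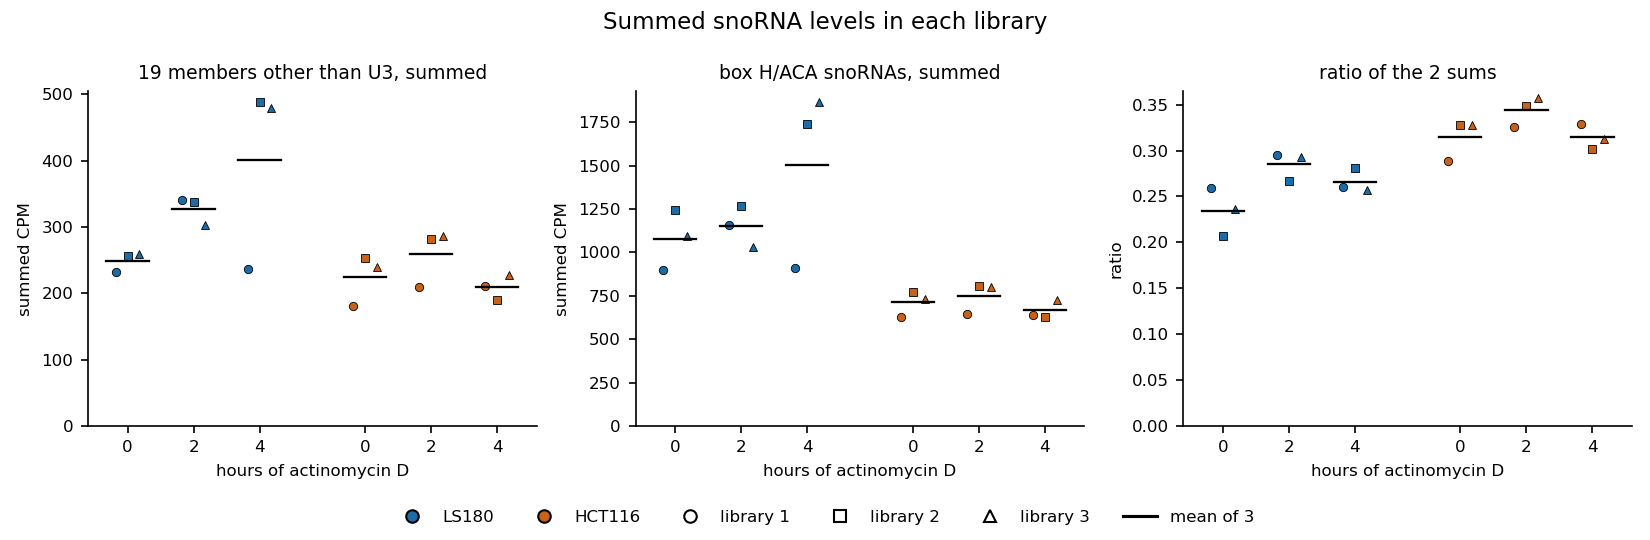
Summed CPM of the 19 members other than U3, summed CPM of the box H/ACA snoRNAs, and the ratio of these sums (y axes, from 0), in each library by line and hours of actinomycin D (x axes), with a bar for the mean of 3. Both sums are low in LS180 library 1 at 4 h (236 and 908 CPM), while the ratio there, 0.260, is within the range of its group.

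In LS180 at 4 h most members and most of the genes that hold them were above 0, and the size of the change differed between member and gene in some pairs and was close in others. Of the 22 members 18 lay within a protein-coding gene on the same strand, in 15 such genes: 4 were in introns of every transcript, 11 overlapped exons of transcripts of the gene that are not annotated as coding, and 3 (SNORD118, SNORD14C and SNORD15A) overlapped an exon of a coding transcript. SNORD118 is counted here by position, although it has its own promoter. Of the 15 genes, 10 were called higher and 2 lower in LS180, where 26.6% and 31.1% of all genes were, with a median of 0.41, and 9 and 2 in HCT116 (26.2% and 23.7%), with a median of 0.31. Both medians are smaller than the move of all genes with ribosomal protein scaling, to -0.54 in LS180 and -0.34 in HCT116. Some of the 15 are ribosomal protein genes, and how far the calls of these genes depend on that scaling was not tested. The member's change was above that of its gene for 15 of 18 in LS180 and for 5 of 18 in HCT116. Across the 18 members, the changes of member and gene had a Pearson r of -0.312 in LS180 and 0.0961 in HCT116, a description without a test. SNORD97 (0.44) and EIF4G2 (0.41), and SNORD94 (0.40) and PTCD3 (0.54), had changes of similar size in LS180, where neither member was called. SNORD10 changed by 0.45 and EIF4A1 by 0.24. These pairs and those that follow were chosen after their values were seen. SNORD14C changed by 2.24 in LS180 at 4 h, while HSPA8, a heat shock chaperone, changed by -0.12 (edgeR adjusted p = 0.426). SNORD8 changed by 1.55 while CHD8, a chromatin remodeller, fell by 1.31 on the log2 scale (edgeR adjusted p = 5.35e-09). SNORD94 changed by -0.56 in HCT116 while PTCD3 changed by 0.39. RPL13A, a ribosomal protein gene, holds 3 members: in LS180 at 4 h, SNORD33 changed by 1.92, SNORD32A by 0.97 and SNORD35A by -0.00, and RPL13A itself by 0.50. Counts of members and hosts that overlap exons cannot be fully separated.

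**Figure D5:**
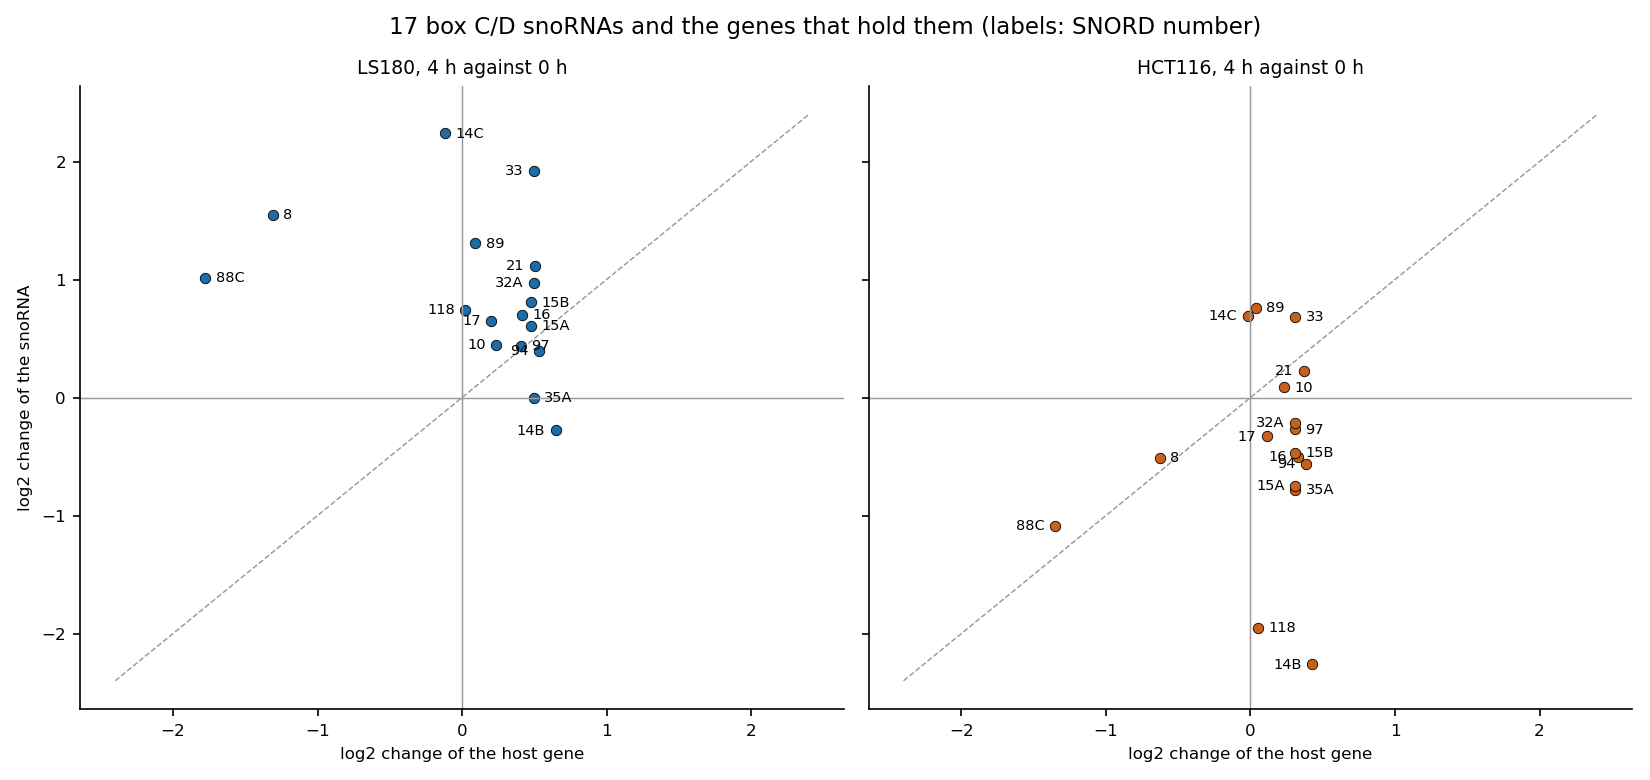
Log2 change at 4 h against 0 h of members within a gene, all but 1 of the 18 (y axis), against that of the gene that holds them (x axis) in LS180 and HCT116, with equal change on the dashed line. SNORD8 and SNORD14C lie far above their hosts in LS180 (1.55 beside -1.31 and 2.24 beside -0.12), while SNORD97 and SNORD94 lie close to the line (0.44 beside 0.41 and 0.40 beside 0.54).

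Protein levels were not measured, and the values in this and the next paragraph are those of mRNAs. Of the mRNAs of the 4 core proteins of the box C/D complex, 3 were called higher and 1 lower at 4 h in each line. Of all genes, 26.6% were called higher and 31.1% lower in LS180, and 26.2% and 23.7% in HCT116. In LS180 at 4 h against 0 h, NOP56 fell by 0.54 on the log2 scale (edgeR adjusted p = 1.24e-07), and NHP2L1 (0.36), NOP58 (0.23) and FBL (0.19) rose, each by less than the shift of 0.54 that ribosomal protein scaling makes, which turns their sign. In HCT116, NOP56 fell by 0.29 (edgeR adjusted p = 0.000236), and NOP58 (0.41), NHP2L1 (0.27) and FBL (0.26) rose, the last 2 by less than the shift of that scaling. FBL was at 102 ± 5.15 CPM (SD, n = 3) at 0 h and 116 ± 0.69 CPM at 4 h in LS180. Of 13 assembly factors, 6 rose and 4 fell in LS180 (26.6% and 31.1% of all genes), and 9 rose and 3 fell in HCT116 (26.2% and 23.7%). HSP90AA1, a chaperone, rose by 0.69 in LS180 and 0.46 in HCT116, and RUVBL1, an ATPase of the assembly machinery, by 0.35 and 0.61. The RUVBL1 rise in LS180 was smaller than the shift of 0.54 that ribosomal protein scaling makes there. COIL, the Cajal body scaffold, fell by 2.86 and by 1.59, and NUFIP1, which helps load the core proteins, fell by 1.60 and by 0.91 in LS180 and HCT116.

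Of 12 trimming and cap enzymes, 3 rose and 5 fell in LS180, and 6 rose and 4 fell in HCT116, beside the same shares of all genes. XRN2, an exonuclease that trims snoRNA ends, rose by 0.29 and 0.35. Its rise in LS180 was smaller than the shift that ribosomal protein scaling makes there, and its rise in HCT116 was close to that shift. DBR1, which opens the intron lariats that hold snoRNAs, fell by 1.31 and by 1.13, and TGS1, which methylates the cap of U3, fell by 1.36 and by 0.93. The small subunit processome is where U3 works. Of the mRNAs of its 24 listed proteins, 1 rose and 16 fell in LS180, and 1 rose and 6 fell in HCT116. The share that fell was above the 31.1% of all genes in LS180 and near the 23.7% in HCT116. The mRNA of IMP3, a U3-binding protein, fell by 2.39 and by 1.24. These lists were written from general knowledge with earlier results of the data known.

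In the siRNA libraries STAU1 itself was at 144 and 141 CPM with the control siRNA and 9.69 and 9.16 CPM with siSTAU1, a log2 change of -3.92 (SE 0.0571, edgeR adjusted p = 2.15e-12). The RNA was polyA-selected, and mature snoRNAs have no polyA tail. Depth was 23.7 to 26.7 M counts. Of the 22 members, 2 passed the filter on low counts, 16 of the other 20 held counts of at most 20 in any library, and 4 had none. edgeR called 0 of the 2 higher and 0 lower, where 23% of the 14073 genes tested were called in each direction. DESeq2 also called 0, with no adjusted p for SNORD17, and 0 had an unadjusted p under 0.05.

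SNORD3A held 435 and 88.5 counts with the control siRNA and 87.9 and 243 with siSTAU1. The groups overlapped, and the change was -0.60 (SE 0.51, edgeR adjusted p = 0.368). Leaving out 1 library gave changes from -1.51 to 0.85, and it was called lower without siCTRL library 2 (adjusted p = 0.0499) or without siSTAU1 library 2 (adjusted p = 0.0268). SNORD17 held 21 and 9 counts with the control siRNA and 13 and 14 with siSTAU1, a change of -0.11 (SE 0.458, edgeR adjusted p = 0.871). SNORD15B and SNORD97, the next in mean count, held at most 20 counts in a library. NOP56 mRNA fell by 0.31 (edgeR adjusted p = 3.62e-05), and 0 of the mRNAs of the other core proteins passed. Of the mRNAs of 24 processome proteins 2 rose and 12 fell, where 23% of all genes were called in each direction. Other lists also leaned lower: 2 rose and 9 fell of 12 trimming and cap enzymes, and 2 rose and 5 fell of 13 assembly factors.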

How the data were processed

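RNA of 22 libraries was measured, 18 of total RNA (actinomycin D) and 4 of polyA RNA (siRNA), purified with a column kit and prepared as stranded libraries, per the labels' protocols. The submitters' processing notes name cutadapt, STAR 2.7 and RSEM 1.3.1, with hg19 for actinomycin D and hg38 for siRNA. For the annotation release and the strand setting of the counting, nothing is given in the sources used here. The deposited tables held the authors' expected counts per gene, which divide reads among near-identical genes, with a length and an effective length per gene. The 2 experiments were fitted apart.

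Rounded expected counts went into quasi-likelihood fits of edgeR 4.0.16 (R 4.3.3) after TMM scaling and filterByExpr by group. Two-sided p-values from glmQLFTest were adjusted by Benjamini-Hochberg over every gene fitted, at a threshold of 0.05. The actinomycin D fit held 17256 genes and 12 residual degrees of freedom, the siRNA fit 14073 and 2. CPM were TMM-scaled. Standard errors were the log2 change divided by the root of the F statistic. Sequences, positions and host genes came from GENCODE release 29 (GRCh38), matched on the gene identifier. The host is the most abundant gene on the same strand that spans the member. Computations also used Python 3.11.15, numpy 2.4.6, pandas 2.3.3 and matplotlib 3.10.9.

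The members, lists and tests were chosen with earlier results of these data known. Named are the cleavage RNAs, the 8 members highest per kilobase at 0 h, up to 4 called rises and falls per comparison among members averaging 1 CPM, the members nearest the minimum, and up to 3 genes per list. For siRNA the 4 highest members are named. Other named members and SNORD3B-1 were chosen after their values were seen.

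Alternatives were RLE size factors, DESeq2 1.42.0, total library size, ribosomal protein scaling, no filter or a filter of 1 CPM in all libraries of a group, only the libraries compared, a minimum of 100 counts, the replicate number as a block, and leaving out each library. After the data were seen, box H/ACA scaling, LS180 4 h from library 1 alone, HCT116 from libraries 2 and 3 alone and the summed U3 rows were added. For 1 member the sequence, position and host gene are not reported here.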

Additional observations from a re-analysis of the deposited data

Results flagged for a closer look

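The change from 0 h to 4 h differed between HCT116 and LS180, by a test of the difference itself, for 4 members. The difference, HCT116 minus LS180, was -2.06 for SNORD8, -2.09 for SNORD46, -1.55 for SNORD14C and -0.96 for SNORD94 on the log2 scale. SNORD8 passed the rule only through HCT116 at 0 h (13.7 counts against 8.33 in LS180), so its difference draws on the reads that chose it and is a description. SNORD46 kept its call in 20 of 22 alternatives and lost it with box H/ACA scaling and with LS180 library 1 as the only 4 h library. SNORD8 kept it in 6 of 21, SNORD14C in 13 of 23 and SNORD94 in 15 of 23.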

How the results depend on the processing

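SNORD13 and SNORD3D at 2 h and 4 h in both lines, SNORD14C at 2 h and 4 h in LS180 and SNORD33 at 2 h in LS180 kept their calls in every alternative that gave an adjusted p. Over all members and comparisons, single values stayed on their side of the threshold in 2732 cases, crossed it in the same direction in 172 (newly called) and 105 (no longer called), and reversed in 6. DESeq2 gave no adjusted p in 42 of these cases, which count as no lost call. The reversals were SNORD10 at 4 h against 0 h with ribosomal protein scaling (-0.13 in LS180, -0.32 in HCT116), and, with LS180 library 1 alone at 4 h, SNORD15B (-0.22), SNORD17 (-0.083) and SNORD8 (-0.065 against 0 h, -0.49 against 2 h). Except where stated, the cause was not tested.

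Counts of members called moved by more than 1.5 times as follows. In LS180 at 2 h against 0 h, 5 higher became 3 with a filter of 1 CPM in all libraries of a group, 1 among members with a mean of 100 counts (fewer genes), 12 with no filter, 9 with only the libraries compared, and 3 with box H/ACA or ribosomal protein scaling. In LS180 at 4 h against 0 h, 10 higher became 2 with library 1 alone, 4 among members with a mean of 100 counts, 17 with no filter, 4 with box H/ACA scaling, 5 with ribosomal protein scaling and 6 with total library size. In LS180 at 4 h against 2 h, 1 higher became 2 with RLE or the 1 CPM filter, 7 with no filter, and 0 with DESeq2, library 1 alone, members with a mean of 100 counts, only the libraries compared, the replicate block, box H/ACA or ribosomal protein scaling, or total library size.

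In HCT116 at 2 h against 0 h, 1 higher became 2 with DESeq2, with only the libraries compared and with the replicate block, and 3 with no filter, which also gave 2 lower in place of 1. In HCT116 at 4 h against 0 h, 1 higher became 2 with no filter, and 4 lower became 2 among members with a mean of 100 counts, 9 with no filter and 12 with ribosomal protein scaling. In HCT116 at 4 h against 2 h, 1 lower became 4 with libraries 2 and 3 alone, 0 with the 1 CPM filter and among members with a mean of 100 counts, 8 with no filter, and 2 with the replicate block, ribosomal protein scaling or total library size. For the line difference at 4 h against 0 h, 4 lower became 7 with HCT116 libraries 2 and 3 alone or the 1 CPM filter, 0 with LS180 library 1 alone or box H/ACA scaling, 1 among members with a mean of 100 counts or with ribosomal protein scaling, 15 with no filter and 2 with only the libraries compared. For 4 h against 2 h, 0 lower became 10 with no filter.

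Leaving out 1 library at a time gave 3 to 6 higher in LS180 at 2 h, 7 to 16 at 4 h and 0 to 9 at 4 h against 2 h, with 16 and 9 both without library 1 at 4 h. In HCT116 it gave 1 to 2 higher and 1 to 2 lower at 2 h, 1 to 2 higher and 1 to 7 lower at 4 h, and 0 to 4 lower at 4 h against 2 h. The line difference gave 1 to 14 lower at 4 h against 0 h and 0 to 9 at 4 h against 2 h, and siSTAU1 0 to 1 lower. With 1 siRNA library left in a group, that library is assumed to vary like the other group. Same-numbered libraries had deviations correlated at -0.0916 to 0.0748 in LS180 and 0.0849 to 0.325 in HCT116, against -0.0786 to 0.0968 and -0.225 to 0.125 for different numbers. The labels give no shared source for a number, and not all same-numbered correlations were over 0.1, so the numbers were not taken as a pairing, although all were above 0 in HCT116. With the replicate block, 11 members were higher and 1 lower in LS180 at 4 h against 0 h, and 1 higher and 5 lower in HCT116. Depth limits the members with few counts per library, such as SNORD118 and SNORD14B in HCT116 (at most 30.8 and 27.7).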

Other observations

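The Cajal body RNAs, which guide modification of spliceosomal RNAs, were counted with the same minimum of 10 counts, which 16 of 54 rows reached. In LS180 at 4 h against 0 h, 9 of 16 were called higher and 0 lower (26.6% and 31.1% of all genes), with all 16 above 0 and a median log2 change of 0.73. In HCT116, 6 were higher and 1 lower (26.2% and 23.7%), with a median of 0.10, beside -0.51 for the box C/D members. The line difference was called lower for 3 of 16 (1.33% of all genes). The 4 genes whose profile over the 6 group means was most like the median member had Pearson r of 0.976 to 0.987, and 2 of them were box H/ACA snoRNAs.

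SNORD3B-2, a further U3 row that the symbol pattern leaves out, held 16695, 21225 and 21972 counts in LS180 at 0 h and 401, 468 and 2048 in HCT116 at 0 h. Because RSEM divides reads among near-identical U3 rows, the level of each row is uncertain.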
